A study of Homo sapiens with 6 samples.

Results

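The JAK-STAT group examined here comprised 9 genes, chosen by name from the 47432 genes in each table: the kinases JAK1, JAK2 and TYK2, the transcription factors STAT3, STAT5A and STAT5B, and SOCS1, SOCS3 and PIM1, referred to here as the feedback and target genes. All 9 were found. Their expression was compared between cells of the established human melanoma line LOX-IMVI with a control short hairpin RNA (shCtrl, 3 libraries) and cells of the same line with a hairpin against NFKBIZ (shNFKBIZ, 3 libraries), the gene for the nuclear co-activator IκBζ. Both constructs were delivered by lentivirus with puromycin selection, so the control cells shared the transduction and the drug. One NFKBIZ hairpin in 1 cell line was used, no added cytokine is named in the labels, and effects of the hairpin outside NFKBIZ cannot be told apart from those of the knockdown. The study gives the libraries of a group as independent experiments. The p-values below measure the spread between these libraries only.

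Cytokine receptors of the IL-6 and interferon families have no kinase activity of their own and signal through Janus kinases (JAK1, JAK2 and TYK2) bound to their cytoplasmic tails. The kinases phosphorylate STAT proteins, which dimerise, enter the nucleus and bind DNA elements with the spaced form TTCNNNGAA. SOCS3 and SOCS1 are among the genes switched on by STATs, and their proteins bind receptors or JAKs and dampen the signal. PIM1, a serine/threonine kinase that favours survival and growth, is another classical STAT3 and STAT5 target. In melanoma, STAT3 signalling has been linked to survival and to escape from immune control.

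Each library held 22264473 to 24624839 exon reads and 1812526 to 1975528 intron reads, where a read is a sequenced fragment assigned to a gene. Intron reads made up 7.16 to 7.46% of gene reads in shCtrl and 7.63 to 8.15% in shNFKBIZ. The targeted gene followed the labels. NFKBIZ was at 41.4, 42.9 and 49.2 TPM (reads divided by exon length and scaled to the same total in every library) in shCtrl and at 13.7, 14.1 and 13.3 TPM in shNFKBIZ. Of 7 melanocytic markers, MITF alone reached 1 TPM in any library (3.21 TPM in shCtrl and 2.00 TPM in shNFKBIZ on average), MLANA, SOX10 and S100B had 0 reads in all libraries, and the list summed to 3.06 to 4.10 TPM in shCtrl and 1.79 to 2.44 TPM in shNFKBIZ. Of 5 markers of dedifferentiated melanoma, 4 were above 1 TPM in every library, with a sum of 587 to 624 TPM in shCtrl and 662 to 677 TPM in shNFKBIZ. Of these, WNT5A was lower (-1.20) and SOX9 higher (1.27), both past a 2-fold change in the fit described below. No leukocyte marker (5 genes) or endothelial marker (2 genes) reached 1 TPM in any library, and the leukocyte list summed to at most 0.482 TPM. Of 3 fibroblast markers PDGFRA alone did, and it was higher in shNFKBIZ (11.6 against 2.65 TPM), with DCN and LUM at 0 reads in all shNFKBIZ libraries. The part of these marker differences in the results below was not tested. In bulk RNA, fewer expressing cells and less RNA per cell cannot be told apart.

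In shCtrl cells SOCS3 had the highest TPM of the 9 members. TPM here divides by the merged exon length of all annotated transcripts, 11208 bases over 50 transcripts for STAT3, 13174 over 31 for JAK1 and 2734 over 2 for SOCS3, so the order between genes depends on these lengths and may not be that of molecules. It was at 129, 136 and 140 TPM in the 3 shCtrl libraries. STAT3, the main STAT downstream of IL-6 family receptors, followed with 68.9 ± 1.78 TPM (SD, n = 3). JAK1, the kinase on which IL-6 and interferon receptors chiefly rely, was at 41.9 ± 1.87 TPM. PIM1 (20.8 ± 0.255 TPM), TYK2 (18.6 ± 0.678 TPM) and JAK2 (17.2 ± 1.25 TPM) lay close together, and the library values of TYK2 and JAK2 overlapped. STAT5B was at 10.7 ± 0.182 TPM. SOCS1 (1.06 ± 0.174 TPM) and STAT5A (0.136 ± 0.0759 TPM) were at the bottom, each separated from the gene above it in all libraries.

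The order differed in shNFKBIZ cells. STAT3 was highest at 62.0 ± 0.510 TPM, and SOCS3 (34.3 ± 1.24 TPM) now overlapped JAK1 (33.3 ± 0.373 TPM). Among all genes, ranked by mean TPM, SOCS3 moved from rank 1124 to rank 4545. TYK2 (18.2 ± 2.20 TPM) and JAK2 (17.3 ± 0.253 TPM) overlapped again. STAT5B (15.2 ± 0.435 TPM) stood above PIM1 (9.91 ± 0.445 TPM), the reverse of their order in shCtrl. SOCS1 (0.610 ± 0.485 TPM) and STAT5A (0.0534 ± 0.0261 TPM) stayed last.

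**Figure D1:**
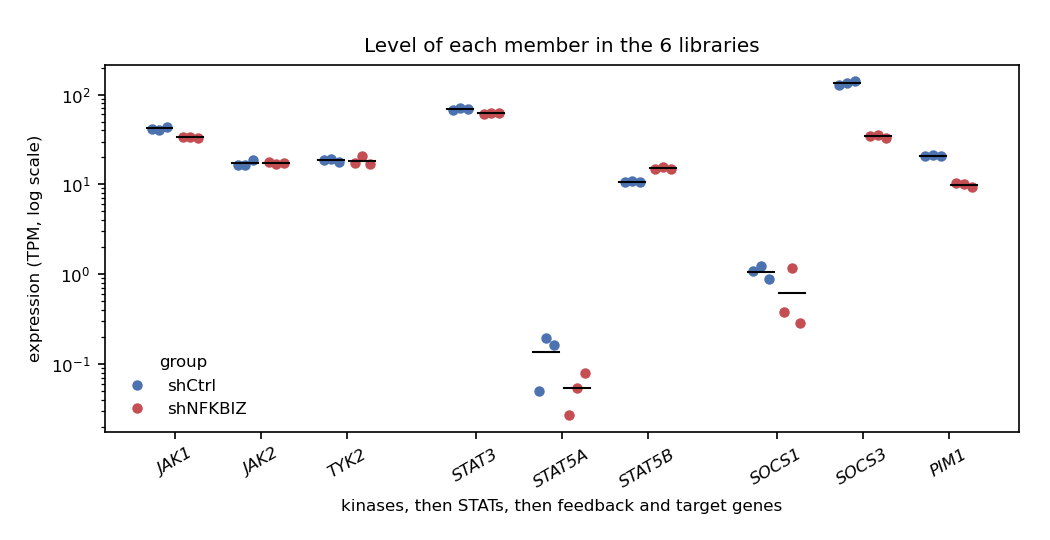
Expression of the 9 members in TPM (log axis) in each of the 3 shCtrl and 3 shNFKBIZ libraries, one point per library, with a bar at the group mean. SOCS3 falls from 129 to 140 TPM to 32.9 to 35.3 TPM and PIM1 from 20.5 to 21.1 TPM to 9.43 to 10.3 TPM, while JAK2, TYK2, SOCS1 and STAT5A overlap between the groups.

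Differences between groups were tested on exon reads with the quasi-likelihood test of edgeR, with p-values adjusted (Benjamini-Hochberg) over the 13843 genes that passed a filter on low counts. The threshold used below asks for both an adjusted P of 0.05 or less and a change of 2-fold or more. Log2 changes are shNFKBIZ over shCtrl and are given ± SE of the fit. Of the 9 members 8 could be tested, and STAT5A had too few reads. SOCS3 and PIM1 were past the threshold, both lower in shNFKBIZ, against a background of 8.96% of all tested genes in either direction and 5.12% lower. At an adjusted P of 0.05 or less with no limit on fold change, 5 of the 8 were called, 4 lower (SOCS3, PIM1, JAK1, STAT3) and 1 higher (STAT5B). Of all genes 65.3% met that rule, 32.8% lower and 32.5% higher, so the count of 5 is near the background. The same 5 members had library values, in depth-scaled counts (CPM), that did not overlap between groups, as did 68.7% of all genes. The median log2 fold change was -1.15 over the 3 feedback and target genes, -0.11 over the 3 kinases and 0.09 over the 2 tested STATs, beside 0.0043 over all genes.

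SOCS3 (ENSG00000184557) lies on chromosome 17, 78356778 to 78360077, minus strand, in hg38. Its exon reads numbered 2185, 2382 and 2206 in the shCtrl libraries and 555, 555 and 535 in the shNFKBIZ libraries. Every shNFKBIZ library was far below every shCtrl library, and the values within each group were close. The log2 change was -2.06 ± 0.0482 (adjusted P 2.87e-19), which left 24.1% of the shCtrl level. By p-value SOCS3 ranked 23 among the 13843 genes, and by size of change 188. Reads that span an exon junction, a small part of SOCS3 reads, since its coding sequence lies in a single exon, numbered 26, 31 and 22 in shCtrl and 8, 4 and 8 in shNFKBIZ. A fit on junction-spanning reads alone, added after the data were seen, gave -1.93 (SE 0.338, adjusted P 2.89e-06, edgeR).

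PIM1 (ENSG00000137193, chromosome 6, 37170152 to 37175428, plus strand) collected 392, 410 and 359 exon reads in the shCtrl libraries and 183, 174 and 170 in shNFKBIZ. The groups did not overlap. The log2 change was -1.15 ± 0.0812 (adjusted P 4.23e-11), which left 45.0% of the shCtrl level. The interval of 2 SE either side ran from -1.31 to -0.99, so its upper end lay just short of a 2-fold decrease. Without any single library the estimate stayed between -1.19 and -1.12. Junction-spanning reads alone gave -1.01 (SE 0.235, adjusted P 0.000281).

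The DNA just before the annotated start of PIM1 is shown as the upstream region of a member past the threshold and a classical STAT target. It is the 250 bases upstream of the gene start in hg38, written 5′ to 3′ on the plus strand, chr6:37169902-37170151, with any match to the spaced STAT motif in capitals.
PIM1 upstream: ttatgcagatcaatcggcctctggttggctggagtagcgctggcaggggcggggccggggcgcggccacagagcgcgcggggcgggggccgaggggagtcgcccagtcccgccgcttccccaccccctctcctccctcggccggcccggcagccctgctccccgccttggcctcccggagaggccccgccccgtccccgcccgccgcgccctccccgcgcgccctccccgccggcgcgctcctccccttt
The motif TTCNNNGAA reads the same on both strands in its fixed letters. The window of 250 bases before to 50 after the PIM1 start held no match, so no letter is in capitals. In windows of the same length 1420 of 20011 protein-coding genes (7.10%) held that motif. The form with 4 in place of 3 spacer bases, which STAT6 prefers, was in 5.66% of these windows and not in that of PIM1. The PIM1 window was 79.7% G and C with 39 CpG dinucleotides. That these letters are not in this window says nothing about binding in these cells.

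SOCS1, the other inhibitor in the group, was barely expressed. Its exon reads were 12, 14 and 9 in shCtrl and 4, 12 and 3 in shNFKBIZ. Of the shNFKBIZ libraries, 2 were below every shCtrl library and replicate 2 lay within the shCtrl range. The log2 change was -0.88 ± 0.444 (adjusted P 0.0871, edgeR), not called, with an interval of 2 SE from -1.77 to 0.01. Without shNFKBIZ replicate 2 it was -1.71 (SE 0.509, adjusted P 0.00603) and would have been past the threshold, while without replicate 1 it was -0.65 (adjusted P 0.261) and without replicate 3 it was -0.55 (adjusted P 0.328). The summed reads, 35 against 19, gave a ratio of 0.572 after scaling (exact 95% interval 0.309 to 1.03, counting error only). SOCS1 (ENSG00000185338, chromosome 16, 11254417 to 11256204, minus strand) lies wholly inside the gene RMI2 on the opposite strand, in an intron of it, and strand was not used in counting. At the density of RMI2 intron reads, 0.529 to 1.002 reads per library would be expected in the length of SOCS1, compared with the 3 to 14 observed.

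Of the 3 kinases JAK1 was lower in shNFKBIZ, and JAK2 and TYK2 were not called. JAK1 (ENSG00000162434, chromosome 1, 64833223 to 65067754, minus strand) collected 3367, 3441 and 3349 exon reads in the shCtrl libraries and 2590, 2528 and 2574 in shNFKBIZ, with no overlap between groups. Its log2 change was -0.42 ± 0.0370 (adjusted P 2.08e-09), which left 75.0% of the shCtrl level. JAK2, the kinase shared by IL-6 family and growth hormone type receptors (ENSG00000096968, chromosome 9, 4984390 to 5129948, plus strand), had 813, 839 and 852 reads in shCtrl and 813, 776 and 819 in shNFKBIZ. These values overlapped, and the log2 change was -0.07 ± 0.0545 (adjusted P 0.260) with an interval of 2 SE from -0.18 to 0.04. With library size alone as the scaling the JAK2 estimate changed sign, to 0.02. TYK2, which pairs with JAK1 at type I interferon and IL-10 family receptors (ENSG00000105397, chromosome 19, 10350533 to 10380608, minus strand), had 982, 1057 and 882 reads in shCtrl and 864, 1017 and 844 in shNFKBIZ. After scaling for depth shNFKBIZ replicate 2 lay within the shCtrl range and the other two below it, and the log2 change was -0.11 ± 0.0652 (adjusted P 0.139). Without shNFKBIZ replicate 2 it was -0.20 (adjusted P 0.00428), and with the replicate number as a block it was -0.11 (adjusted P 0.0413). The library shNFKBIZ replicate 2, which also decided the SOCS1 call, had the highest intron share of gene reads (8.15%), and the part of this in both results was not tested. The intervals of 2 SE reached down to -0.18 for JAK2 and -0.24 for TYK2.

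The 2 expressed STATs moved in opposite directions. STAT3 (ENSG00000168610, chromosome 17, 42313324 to 42388540, minus strand) collected 4697, 5104 and 4419 exon reads in the shCtrl libraries and 4031, 4023 and 4139 in shNFKBIZ. Once scaled for depth the groups did not overlap, and the log2 change was -0.23 ± 0.0360 (adjusted P 6.56e-06), which left 85.0% of the shCtrl level. The size of this change depended on the scaling. With library size alone the STAT3 estimate was -0.15 (adjusted P 0.000905, edgeR). STAT5B, which carries signals of growth hormone and IL-2 family receptors (ENSG00000173757, chromosome 17, 42199176 to 42288633, minus strand), had 793, 848 and 749 reads in shCtrl and 1062, 1094 and 1076 in shNFKBIZ. All shNFKBIZ libraries were above all shCtrl libraries, with a log2 change of 0.42 ± 0.0489 (adjusted P 1.24e-07), 134% of the shCtrl level. Its close paralog STAT5A (ENSG00000126561, chromosome 17, 42287547 to 42311943, plus strand) had 2, 8 and 6 reads in shCtrl and 1, 2 and 3 in shNFKBIZ. The ratio of its summed reads was 0.395 (exact 95% interval 0.127 to 1.06, counting error only). STAT5A was not in the main fit, and an edgeR fit with no filter on low counts gave -1.38 (SE 0.737, adjusted P 0.141), not called. The paralogs are neighbours that overlap by 1087 bases and share sequence. In STAT5B 89.9 to 93.0% of exon reads mapped uniquely, and unique reads gave 0.42 (SE 0.0522, adjusted P 8.58e-09). How the authors' counting divided the other reads between the paralogs was not tested. Junction-spanning reads alone gave 0.29 for STAT5B (SE 0.0862, adjusted P 0.00346, edgeR), the smallest of its exon estimates among the alternatives.

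Intron reads, which come mostly from RNA that is not yet spliced, were compared next and fitted on their own over 12119 genes. Of the 9 members 6 could be tested, and SOCS3 and STAT3 were called, both lower, at an adjusted P of 0.05 or less. Of all genes 38.8% were called, 19.5% lower and 19.3% higher. SOCS3 had 24, 28 and 34 intron reads in shCtrl and 8, 4 and 5 in shNFKBIZ, without overlap. Its intron log2 change was -2.40 ± 0.341 (adjusted P 4.44e-07). PIM1 was too sparse for the fit, with 10, 4 and 11 intron reads in shCtrl and 2 in each shNFKBIZ library. The summed PIM1 intron reads, 25 against 6, gave a ratio of 0.235 (exact 95% interval 0.0787 to 0.586, counting error only), and a fit with no filter on low counts gave -2.09 (SE 0.631, adjusted P 0.00718). SOCS1 had no intron reads and STAT5A had 1 in each group.

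STAT3 had 203, 182 and 161 intron reads in shCtrl and 141, 180 and 143 in shNFKBIZ. The raw ranges overlapped, while the depth-scaled counts (CPM, with TMM factors) did not. The intron log2 change was -0.33 ± 0.106 (adjusted P 0.0135). This call was lost without shCtrl replicate 1 (-0.24, adjusted P 0.110), without shNFKBIZ replicate 1 (-0.28, adjusted P 0.0667) or replicate 3 (-0.28, adjusted P 0.0674), with DESeq2 (-0.33, adjusted P 0.0835) and with the scaling of the exon fit (-0.25, adjusted P 0.0704). JAK1 had 265, 298 and 271 intron reads in shCtrl and 270, 280 and 267 in shNFKBIZ, with a log2 change of -0.12 ± 0.0794 (adjusted P 0.240). JAK2 had 222, 172 and 211 against 201, 207 and 181, which overlap. The intron change of JAK2 was -0.13 (SE 0.102, adjusted P 0.327), and without shCtrl replicate 2 it was called (-0.26, adjusted P 0.0452). TYK2 had 34, 59 and 53 intron reads in shCtrl and 62, 65 and 60 in shNFKBIZ, with a low first shCtrl library, and was not called (0.27, SE 0.174, adjusted P 0.231). Without shCtrl replicate 1 it was 0.06 (adjusted P 0.814). Nor was STAT5B, with 75, 67 and 66 against 82, 92 and 80 (0.20, SE 0.140, adjusted P 0.277).

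**Figure D2:**
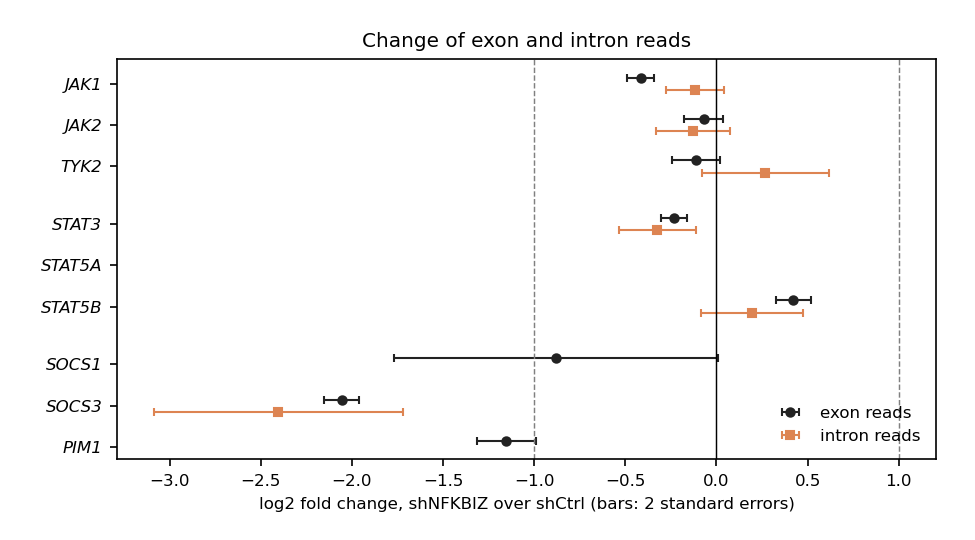
Log2 fold change (shNFKBIZ over shCtrl) of exon reads and of intron reads for each member that could be tested, with bars of 2 standard errors and dashed lines at a 2-fold change. SOCS3 lies beyond a 2-fold decrease in both read types (-2.06 and -2.40), and JAK1 is lower in exon reads (-0.42) than in intron reads (-0.12).

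To ask whether exon and intron reads changed by different amounts, the difference itself was tested in 1 edgeR model over both read types and 11025 genes. JAK1 was the only one of the 6 tested members called. Its exon change minus its intron change was -0.30 on the log2 scale (SE 0.0822, adjusted P 0.00323). In this comparison 28.9% of all genes were called, 16.5% with the exon change lower. The intron share of JAK1 gene reads was 7.30 to 7.97% in shCtrl and 9.40 to 9.97% in shNFKBIZ. Over whole libraries that share was also higher in shNFKBIZ. The model scaled exon and intron reads separately, and with exon scaling for both the JAK1 difference was -0.37 (adjusted P 0.000678). Any part of the library-wide share left after the separate scaling was not tested. RAVER2 overlaps an end of JAK1 by 10 bases. Several non-coding genes lie inside JAK1, and their exon reads numbered at most 6 in any library. TYK2 was at -0.38 (SE 0.172, adjusted P 0.0895), not called. It was called, at -0.46 (adjusted P 0.0392), when exon scaling was used for both read types, and was -0.18 (adjusted P 0.537) without shCtrl replicate 1, the library with the lowest TYK2 intron reads. For SOCS3 the difference was 0.37 (SE 0.375, adjusted P 0.507), with an interval of 2 SE from -0.38 to 1.12. STAT3 (0.09), STAT5B (0.22) and JAK2 (0.06) were not called.

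Ratios within a library set the feedback and target genes against the kinases and STATs without any scaling between libraries. They are given as a description. The summed TPM of SOCS1, SOCS3 and PIM1 was 0.976, 0.996 and 1.01 times that of the 6 kinases and STATs in shCtrl, and 0.313, 0.311 and 0.296 times in shNFKBIZ. SOCS3 supplied most of that sum. The SOCS3 to STAT3 ratio was 1.91, 1.91 and 2.05 in shCtrl and 0.564, 0.566 and 0.530 in shNFKBIZ, above 1 in every control library and below 1 in every knockdown library. The value of 1 has no meaning as a count of molecules, since it moves with the exon lengths used. The PIM1 to STAT3 ratio was 0.302 ± 0.00595 (SD, n = 3) in shCtrl and 0.160 ± 0.00800 in shNFKBIZ. Among the kinases the JAK2 to JAK1 ratio was 0.402, 0.406 and 0.424 in shCtrl and 0.523, 0.511 and 0.530 in shNFKBIZ. None of these 4 ratios overlapped between groups. Each includes a member already called in exon reads, so they are not separate results, and 68.7% of all genes did not overlap in CPM. The summed kinase level was 77.8 ± 2.54 TPM in shCtrl and 68.8 ± 2.17 TPM in shNFKBIZ, and the summed STAT level 79.7 ± 2.02 and 77.2 ± 0.889 TPM.

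**Figure D3:**
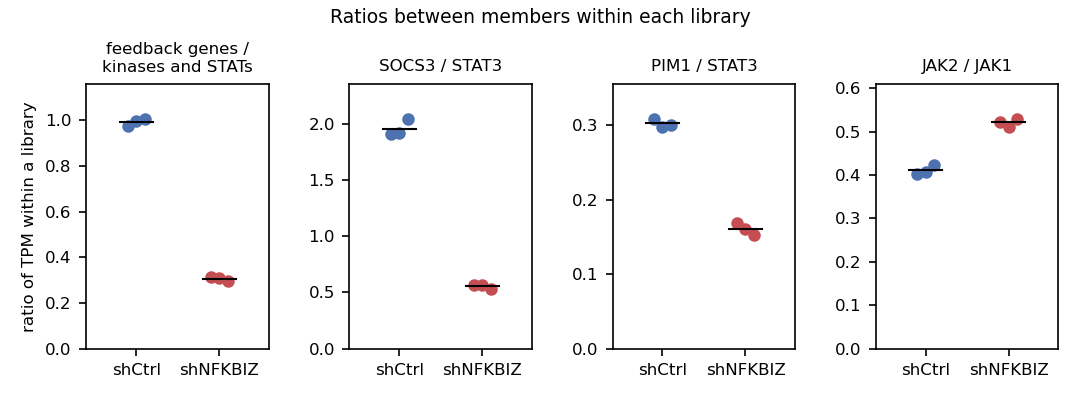
Ratios of TPM between members within each library, in 4 panels whose axes start at 0, with one point per library (3 shCtrl, 3 shNFKBIZ) and a bar at the group mean. The ratio of feedback and target genes to kinases and STATs goes from 0.976 to 1.01 in shCtrl to 0.296 to 0.313 in shNFKBIZ, and the JAK2 to JAK1 ratio is higher in all shNFKBIZ libraries.

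The members were then set beside 53 other genes of the pathway, in a list compiled by role, of which 47 could be tested. At an adjusted P of 0.05 or less, 27 were lower and 10 higher in shNFKBIZ, and the median log2 fold change was -0.22. All genes met that rule at 65.3%, 32.8% lower and 32.5% higher. Past the 2-fold threshold were 7 lower and 3 higher, where 5.12% of all genes passed it downward and 3.84% upward. In the rest of the SOCS family 4 of 5 tested genes were lower, SOCS2 (-0.28), SOCS4 (-0.45), SOCS6 (-0.22) and SOCS7 (-0.25), and SOCS5 was at -0.11 (SE 0.0565, adjusted P 0.0856), beside 32.8% of all genes lower. The SOCS6 call was lost with library size alone (-0.13, adjusted P 0.102) and without shNFKBIZ replicate 2 (-0.15, adjusted P 0.0614). All 5 estimates were smaller in size than the -2.06 of SOCS3. PIM2 (-0.62, SE 0.159) and PIM3 (-0.36, SE 0.0671), the other PIM kinases, were both lower. CISH, JAK3, STAT4, PTPN6, OSM and IL13RA1 did not pass the filter on low counts.

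At the top of the pathway, the ligands held the largest changes. IL6 fell from 8.73 ± 1.54 to 0.225 ± 0.0860 TPM, a log2 change of -5.33 ± 0.222 (adjusted P 9.40e-15), with 4 to 8 reads left per shNFKBIZ library. LIF (-2.58, SE 0.0879) and IL11 (-1.25, SE 0.0664), which signal through the same receptor chain gp130, were also lower. CLCF1 (1.19, SE 0.118) and CTF1 (1.16, SE 0.316, with at most 28 reads per library), other gp130 ligands, were higher. IL6ST, the gene of gp130, was at 54.3 ± 3.79 TPM in shCtrl and 56.4 ± 1.89 TPM in shNFKBIZ and was not called (-0.03, SE 0.0443, adjusted P 0.634), and the sign of its estimate changed with library size alone (0.06). Of 11 tested receptors 6 were lower and 3 higher, beside 65.3% of all genes called. The receptors past the threshold were both lower, IL10RB (-1.16, SE 0.0633), a chain of IL-10 family receptors, and OSMR (-1.04, SE 0.0476), which pairs with gp130. The chains of the interferon-γ receptor moved in opposite directions, IFNGR2 higher (0.76, SE 0.0473) and IFNGR1 lower (-0.53, SE 0.0590). Of 9 tested phosphatases and other inhibitors 4 were lower and 2 higher, also near that share.

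Among 12 listed STAT3 targets 6 were lower, 3 higher and 3 not called, with a median log2 fold change of -0.17, and the 9 of 12 called stand near the 65.3% of all genes. BCL3, a nuclear IκB protein, was the lowest (-2.50, SE 0.0829, adjusted P 9.95e-17). CCND1, the gene of cyclin D1, moved the other way, from 482 ± 24.4 to 1139 ± 10.4 TPM (1.16, SE 0.0353, adjusted P 2.24e-17). Also lower were CEBPD (-1.11, past the 2-fold threshold too), JUNB (-0.83), MCL1 (-0.63), BCL2L1 (-0.62) and SBNO2 (-0.34). TIMP1 (0.44) and CEBPB (0.29) were higher. SOCS3 and PIM1 thus shared their direction with the 6 lower targets and not with the 3 higher ones.

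**Figure D4:**
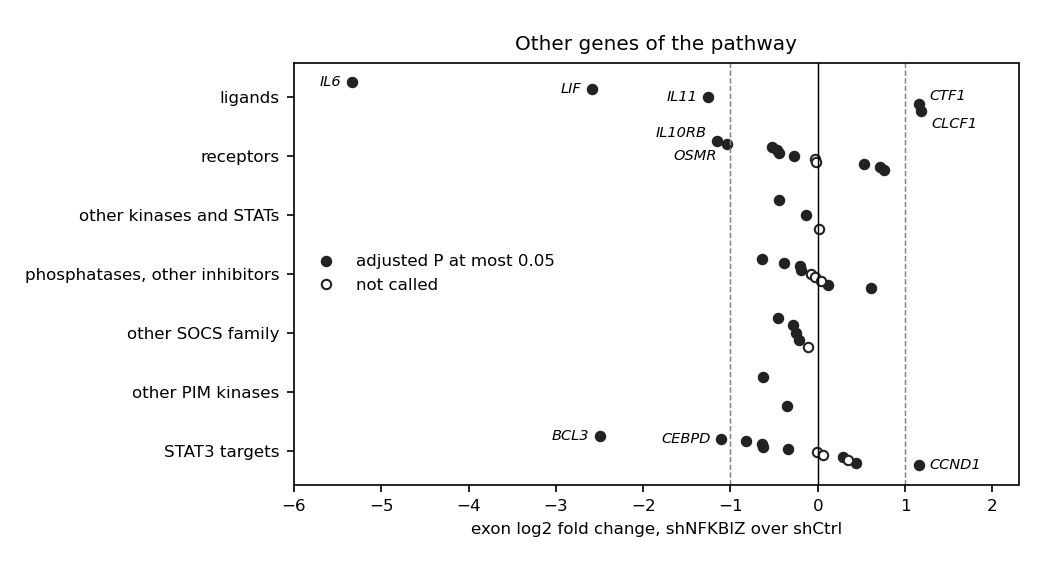
Exon log2 fold change (shNFKBIZ over shCtrl) of the 47 tested pathway genes outside the 9 members, in rows by role, with filled points for an adjusted P of at most 0.05, open points for genes not called, and dashed lines at a 2-fold change. Genes past a 2-fold change are named, and IL6 (-5.33), LIF (-2.58) and BCL3 (-2.50) lie farthest to the left.

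The genes whose pattern over the 6 libraries was most like that of SOCS3, by Euclidean distance of centred log2 CPM among 11048 candidates outside the lists with a mean of at least 50 reads, were SOD2 (distance 0.145), PTX3 (0.145) and CYP24A1 (0.153). SOD2 is a mitochondrial superoxide dismutase, PTX3 a secreted pattern recognition protein and CYP24A1 a vitamin D hydroxylase. Their log2 fold changes were -2.03 (SE 0.0368), -1.97 (SE 0.0583) and -1.95 (SE 0.0745). That these lie close to the -2.06 of SOCS3 follows from how the genes were chosen and is not a separate result.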

How the data were processed

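RNA-seq of LOX-IMVI cells (3 shCtrl and 3 shNFKBIZ libraries, grouped by sample title) was used. The authors mapped reads to hg38 (GRCh38 per the labels) in CLC Genomics Workbench with default settings and without strand, and deposited whole-number counts of exon, intron and junction-spanning reads per gene, divided into total and unique reads. TPM was computed again from exon reads and lengths and equalled the deposited TPM.

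Total exon reads were filtered with filterByExpr, scaled by TMM and tested with edgeR 4.0.16 (glmQLFit with robust estimation, two-sided, no replicate block) in R 4.3.3. Intron reads had their own fit. Exon and intron changes were compared as an interaction with library blocks and separate TMM factors. SE is the size of the log2 fold change divided by the square root of F. In simulated counts made from the exon libraries (13672 genes), 98 genes were changed 2-fold and 98 were changed 4-fold. Of these changes 84.7% and 99.0% were recovered, and 12 unchanged genes were called. For intron reads these were 88.5%, 100% and 8 (11896 genes), and for the interaction 79.8%, 99.0% and 9 (10845 genes). Few genes were changed in the simulations, whereas 65.3% were called in the exon data, so these rates may not carry over.

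Named were all members, NFKBIZ, the 4 listed pathway genes per direction with the largest called change, IL6ST and the 3 genes most like the member with the largest change. Other listed genes with values in the text were named after their values were seen. Some items that the rules name are not reported here. The members, lists and rules were chosen with earlier results of these data known. All 9 members had equal coordinates in GENCODE release 44, and the promoter window was read from the hg38 genome.

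Replicates differed by more than sampling noise (a chi-square of 1.69 to 4.18 per degree of freedom). Alternatives were RLE factors, library size alone, other filters, unique, gene or junction-spanning reads, DESeq2 1.42.0, the likelihood ratio test, a replicate block, a fit without the 10 genes of highest abundance, and leaving out each library.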

Additional observations from a re-analysis of the deposited data

How the results depend on the processing

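The exon calls of SOCS3, PIM1, JAK1, STAT3 and STAT5B kept their direction and their side of an adjusted P of 0.05 in all 17 alternatives. The number of members past the threshold was 2 in all of them except without shNFKBIZ replicate 2, where SOCS1 joined (leave-one-out range 2 to 3), and the number at an adjusted P of at most 0.05 was 5 to 7. The count of other pathway genes called was 35 to 37 against 37. The intron count of 2 members was 1 with the effective library sizes of the exon fit (SOCS3), 1 with at least 10 reads in every library (STAT3, since SOCS3 was filtered out), 1 with DESeq2 (SOCS3), 3 with no filter, and 1 to 4 when a library was left out, 1 without shCtrl replicate 1 and 4 without shCtrl replicate 2. The interaction count of 1 was 2 with exon factors and library sizes for both read types. Except where stated, the cause of these shifts was not tested. Estimates near 0 changed sign, for JAK2 exon reads to 0.018 (library size alone) and 0.051 (junction-spanning reads), for IL6ST to 0.0636 (library size alone), 0.0018 (without shCtrl replicate 3) and 0.0152 (without shNFKBIZ replicate 2), with a leave-one-out range of -0.0725 to 0.0152, for the JAK2 exon minus intron difference to -0.0185 (exon factors), -0.0432 (without shCtrl replicate 1) and -0.0039 (without shNFKBIZ replicate 3), with a range of -0.0432 to 0.169, and for that of STAT3 to -0.0091 (without shCtrl replicate 1), with a range of -0.0091 to 0.192. With TMM-scaled CPM in place of TPM the ratio of group means was 0.750 for JAK1, 0.850 for STAT3, 1.34 for STAT5B and 0.450 for PIM1. Library size alone moved the median log2 fold change of all genes to 0.0937. Replicate numbers are shared between groups, but deviations of same-numbered libraries correlated at only 0.0207 to 0.0561, although each of the 6 libraries correlated best with its own number, a hint from the data and not the design. With the replicate block 6 members were called in exon reads, TYK2 being added (-0.11, adjusted P 0.0413), and 2 in intron reads, and no other call of a named gene changed in these fits. The low reads of SOCS1, STAT5A and PIM1 introns limit what can be seen for them.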
